A study of Mus musculus with 2 samples.

Results

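The Wnt ligands, receptors and antagonists were compared between 2 lines made from NIH3T3, a long-established line of mouse fibroblasts. The members were the non-control probes whose gene name in the scanner files is that of a Wnt, a Frizzled (Fzd), a secreted Frizzled-related protein (Sfrp), a Dickkopf (Dkk), Lrp5, Lrp6, Axin1, Axin2 or Porcn. The names found 54 probes for 42 genes, of 41174 probes for 19713 named genes on the array: 19 ligands, 12 receptors, 8 secreted antagonists, the 2 Axin genes and Porcn. Per the labels, both lines carry the pcDNA3.1 plasmid and were selected as stable lines with G418, a drug that kills cells lacking the plasmid's resistance gene. In the control line the plasmid is empty, and in the other it carries MARVELD1, which encodes a membrane protein of the MARVEL-domain family. The study's title asks how MARVELD1 influences the expression profile of these cells. Whether a line is 1 clone or a pool of clones, and which promoter and which species' MARVELD1 the plasmid holds, is not given in the sources used here.

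Wnt proteins are secreted, lipid-bearing signals. They bind Frizzled receptors, with Lrp5 or Lrp6 as co-receptor in the branch that stabilises beta-catenin, and other branches steer cell polarity and calcium. Secreted Frizzled-related proteins bind the ligands, several Dickkopf proteins bind Lrp5 and Lrp6, and the Axins are intracellular scaffolds on which beta-catenin is marked for destruction.

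There was 1 single-colour Agilent array for each line, on the same slide and read in the same scan, so the lines cannot be tested against each other and no p-value is given. Values are processed intensities in scanner units, and 1 probe's intensity says nothing of another gene's level. A difference is the log2 value on the array labelled MARVELD1 minus that on the array of the empty vector line (the control array), after each array was scaled to its 75th percentile (768.1 for the control, 703.3 for the other). Where a pair of intensities is given, that of the control array stands first unless the sentence says otherwise. Well above background were 68.7% of the spots of the control array and 69.0% of those of the array labelled MARVELD1. The median difference of the 15585 genes measured on both arrays was 0.18, or 0.08 when scaled to the array median and 0.02 after loess, so a value near 0.18 is the middle of the array. Marveld1 itself read 6292.8 on the array labelled MARVELD1 and 8724.7 on the other by its brighter probe, a log2 difference of -0.34, and -0.42 by its other probe. Whether these probes read the plasmid's insert is not known, so every direction below rests on the label. All 12 fibroblast markers, among them Col1a1, Col3a1 and Vim, were well above background on both arrays, at 271.6 or more, with summed intensities of 743455.3 and 585730.8. Of 6 epithelial markers 4 were above background on neither array, Epcam and Cdh1 among them. Markers of endothelial cells (4 of 4), macrophages (5 of 5) and neural cells (3 of 4, without Sox2) were above background on at least 1 array, with summed intensities of 1768.2 and 1241.9, 1124.7 and 1076.5, and 8374.3 and 9143.6. Their part in the results was not tested.

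Probes printed repeatedly gave the technical error. A difference between single spots had an SD of 0.67 for probes of mean intensity under 100 (33 probes), 0.39 from 100 to 1000 (67 probes) and 0.17 at 1000 and over (78 probes). These SDs cover spots on these 2 arrays only, not the spread between cultures. Differences from separate probes of the same gene had an SD of 0.54 (5487 genes), wider than the spot SDs from 100 upward but not than that of the dim probes. Of the members, 31 genes were well above background on both arrays, 3 only on the array labelled MARVELD1 and 8 on neither. Of all 19713 genes, 15585 were well above background on both arrays and 3181 on neither. The 31 differences ran from -1.93 to 0.76 with a median of 0.14 and an interquartile range of 0.60, against 0.61 for all genes. Of these 31, 18 differences were within 1 spot SD and 3 were over 2 of them (Dkk2, Fzd1 and Lrp5). These counts hold for the 75th percentile scaling. Under some other scalings Wnt6 and Fzd2 also passed 2 spot SDs, and Lrp5 fell under 2. The 18 include Wnt1, whose difference of 0.36 is a mean over 10 spots per array. For such a mean the SD of a difference between single spots, 0.39, is too wide a measure. The standard error of the Wnt1 difference over its spots was 0.14. Under the alternatives the difference lay between 0.20 and 0.36, so whether Wnt1 passes 2 standard errors depends on the scaling.

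**Figure D1:**
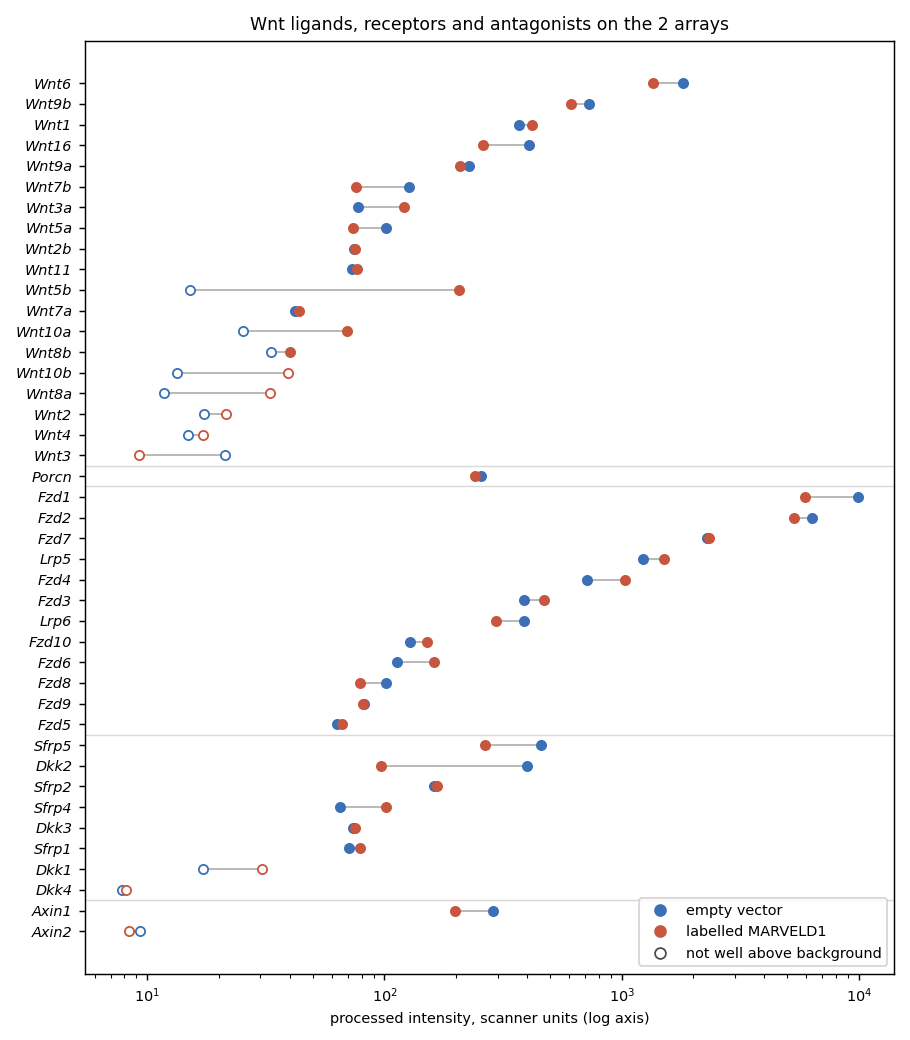
Processed intensity (log axis, scanner units) of the 42 members on the control array (blue) and the array labelled MARVELD1 (red), by the probe that stands for each gene, grouped by role and, where no probe was above background, by the brighter one. Open circles are not well above background: the 8 members with 2 open circles were measured on neither array, and Wnt5b spans from 15.1 to 205.6.

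Among the 34 members above background on at least 1 array, 2 were at least 2-fold higher on the array labelled MARVELD1, Wnt5b and Wnt10a, and 1 was at least 2-fold lower, Dkk2. That is 5.88% higher and 2.94% lower. Of all 16532 genes above background on at least 1 array, 5.37% passed the same limit upward (888 genes) and 3.51% downward (581 genes), or 8.89% in either direction, so the members' shares lie near the background. Both higher members passed the filter only through the array on which they were high: among the 31 members above background on both arrays 0 passed upward, against 4.43% of all genes so filtered. Scaled to the array median, 653 genes passed it upward and 715 downward. The limit is one of size, since nothing was tested. In RNA from whole cultures, fewer cells that make a transcript and less of it per cell cannot be told apart. The values of Wnt5b and Wnt10a are bounds, because their probes were not well above background on the control array. There the bright value is set against the lowest well-measured intensity of that array, 36.6. The bounds leave out spot error, and some readings above 36.6, such as 40.1 for the second Wnt5b probe, were still not well above background.

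**Figure D2:**
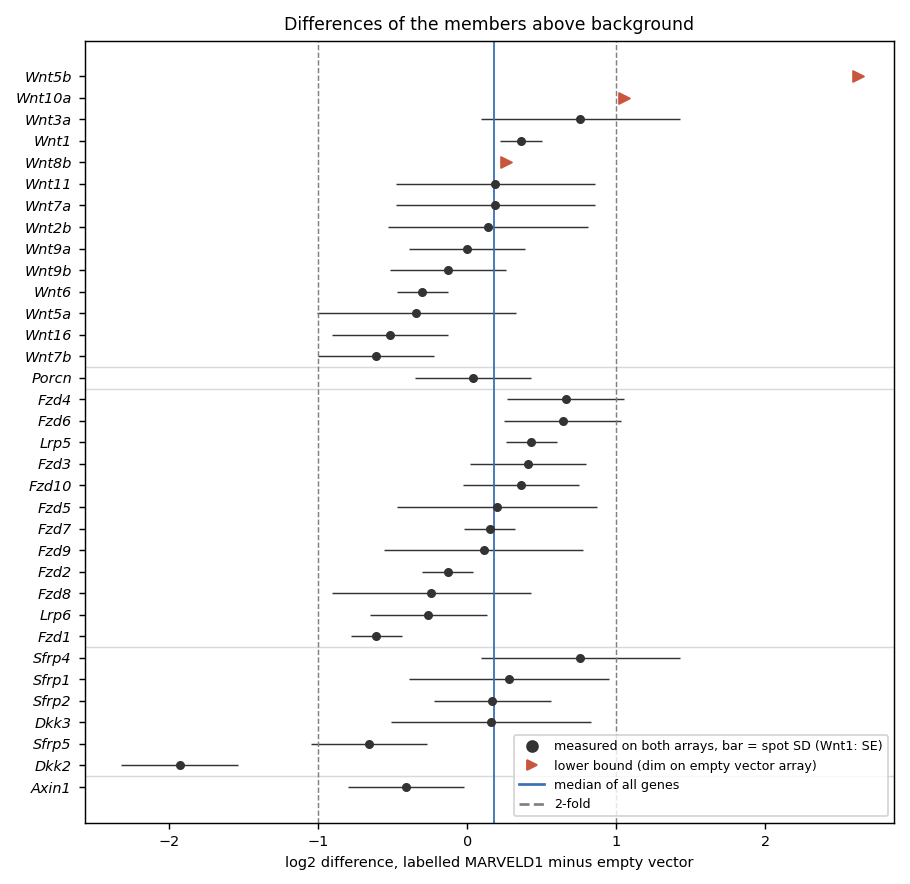
Log2 difference (array labelled MARVELD1 minus control array) of the 34 members above background. Points are genes measured on both arrays with the single-spot SD for their intensity as bar (for Wnt1, the SE over its 10 spots per array, 0.14), red arrowheads are lower bounds, the blue line is the median of all genes (0.18) and the dashed lines mark 2-fold. Wnt5b, Wnt10a and Dkk2 lie outside the dashed lines.

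Wnt5b, a ligand best known in the branch that does not act through beta-catenin, had the largest difference among the ligands. Its probe A_52_P85805 read 15.1 on the control array and 205.6 on the array labelled MARVELD1, with error estimates of the scanner program of 8.1 and 22.2. By this probe, scaling and floor, the bound was 6.13-fold higher there, a log2 value of 2.62. Under the alternative scalings and probe choices that measured it, Wnt5b lay between 0.84 and 2.62, with 1.71 after normexp normalization. Its second probe, A_51_P137991 (chr6:119383012-119383071), read 40.1 and 65.8, a bound of 1.79-fold in the same direction, so the probes differ in size. Wnt5a, the closest relative of Wnt5b, read 101.4 and 73.4, a log2 difference of -0.34, within 1 spot SD. The brighter Wnt5b probe, the Wnt5a probe and that of Wnt16, another ligand, are shown: the first carries the largest ligand difference, the second is its closest relative, and the third is a ligand with a moderate difference for comparison. They are designed oligos of 60 bases, 5′ to 3′ as in the files:
Wnt5b (A_52_P85805, chr6:119390320-119390379, minus strand, mm9): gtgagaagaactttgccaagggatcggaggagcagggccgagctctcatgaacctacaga
Wnt5a (A_51_P162272, chr14:29331746-29335708, plus strand, mm9): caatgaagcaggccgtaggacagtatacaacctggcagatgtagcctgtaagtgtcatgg
Wnt16 (A_52_P615192, chr6:22241089-22241148, plus strand, mm9): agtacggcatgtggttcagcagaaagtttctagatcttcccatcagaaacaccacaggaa
The Wnt5a probe covers 3963 bases of the genome, so its 60 bases are split in the genome. Each of these probes has at least 1 forward reading frame without a stop codon. No annotation of build mm9 was used here, so exons and untranslated regions are not assigned.

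Wnt10a, a ligand of skin appendages and teeth, read 25.3 on the control array and 69.7 on the other (A_51_P171616, chr1:74850633-74850692). By this scaling and floor, the bound was 2.08-fold higher, a log2 value of 1.05. It passes 2-fold by little: it was under 2-fold when scaled to the array median, with quantile normalization, after loess and with normexp. The probe has 1 spot per array, and single-spot differences of probes this dim had an SD of 0.67, which the bound leaves out. Wnt8b read 33.1 and 40.1, a bound of 1.20-fold, which is within the spot error of dim probes.

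The other 11 ligands measured on both arrays lay between -0.61 and 0.76, with a median of 0.00, or -0.18 relative to all genes. Wnt3a, a ligand of the beta-catenin branch, read 77.6 and 120.6, a difference of 0.76. Wnt7b read 127.1 and 76.1 (-0.61), and Wnt16 408.1 and 261.0 (-0.52). Each of these 3 differences was under 2 spot SDs. Wnt6 read 1817.2 and 1354.5 (-0.30), or 1.75 spot SDs. It was at -0.40 when scaled to the array median and -0.44 after loess, over 2 spot SDs of 0.17 each. Its other probe, just past the end of this one, was above background on neither array (8.2 and 8.6). Wnt9b read 729.0 and 609.6 (-0.13). Wnt9a (227.4 and 208.9), Wnt2b (74.6 and 75.1), Wnt11 (73.3 and 76.4) and Wnt7a (41.9 and 43.7) differed by 0.00 to 0.19. The sign of these last 4 turned under at least 1 other scaling. Porcn, the enzyme that acylates Wnt proteins, read 255.7 and 240.1 (0.04), and its sign also turned.

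Wnt1, the founding ligand of the family, is the only member printed 10 times on each array. Its spots read 251.5 to 512.9 on the control array, with a median of 361.0, and 335.2 to 496.8 on the other, with a median of 417.9. The ranges overlap. The mean log2 difference was 0.36, or 0.25 when scaled to the array median, with a standard error over spots of 0.14, which covers spot noise only. That error treats the spots as unpaired and independent, although both arrays share the positions. Before scaling, 6 of 10 positions read higher on the array labelled MARVELD1. Scaling raises that array relative to the control, so on the scale of the 0.36 more positions read higher. The spots of the control array fell apart: 5 read 299.7 or less and 5 read 422.4 or more. The 5 dim ones all lay in rows 350 to 428, together with 1 bright one. At the positions of the dim spots the other array read 335.2 to 496.8, and at the other positions 417.1 to 464.3. The log2 SD over spots was 0.42 on the control array and 0.16 on the other. Of 67 repeated probes of similar intensity, 13 had a larger SD on the control array, so the scatter of Wnt1 there is not the widest.

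**Figure D3:**
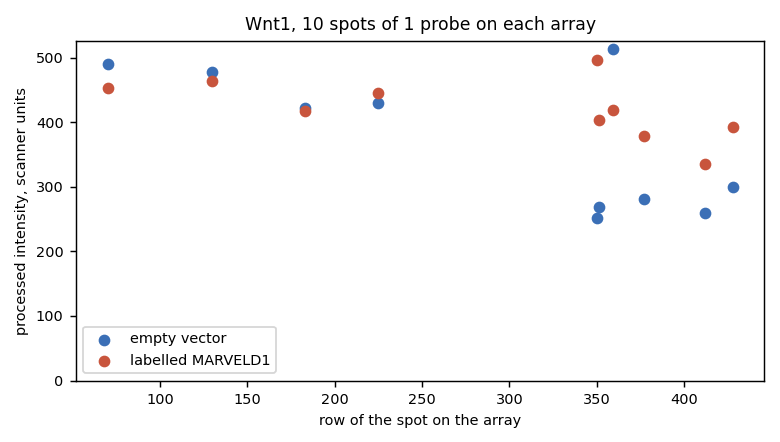
Processed intensity (scanner units) of the 10 Wnt1 spots on the control array (blue) and the array labelled MARVELD1 (red) against the row of the spot. From row 350 on, 5 of the 6 blue spots read 299.7 or less, while the lowest red spot reads 335.2.

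Wnt10b, Wnt8a, Wnt2, Wnt4 and Wnt3 were not well above background on either array. Wnt10b read 13.3 and 39.3 and Wnt8a 11.8 and 32.8, higher in number on the array labelled MARVELD1, but at this signal no difference was measurable. Wnt2 (17.3 and 21.5) and Wnt4 (14.9 and 17.2) were as dim. The probes of Wnt3 read 21.3 and 9.2 and, for the other, 13.6 and 10.9.

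4 pairs of Wnt genes are neighbours, by the mm9 coordinates of their probes. Wnt6 and Wnt10a lie 19.1 kb apart on chromosome 1, with a difference of -0.30 and a bound of 1.05. Wnt1 and Wnt10b lie 21.1 kb apart on chromosome 15, with 0.36 and no measurable value. Wnt3a and Wnt9a lie 82.8 kb apart on chromosome 11, with 0.76 and 0.00. Wnt3 and Wnt9b, 88.5 kb apart on the same chromosome, gave no measurable value and -0.13. In the 2 pairs whose neighbours were both above background on at least 1 array, they differed from each other by 0.76 or more.

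All 12 receptor genes were well above background on both arrays, as were 15585 of all 19713 genes. None was 2-fold higher or lower (0 in each direction). Of all genes above background, 5.37% passed upward and 3.51% downward, so 0 of 12 lies near those shares. The median of the receptors was 0.17, or -0.01 relative to all genes, with 6 above the median of all genes and 6 below it. Fzd1 read 9886.6 on the control array and 5942.9 on the array labelled MARVELD1 (A_52_P597634, chr5:4754003-4754062), a difference of -0.61 or 1.52-fold lower. That is 3.57 spot SDs, and its value lay between -0.87 and -0.61 under every alternative scaling. Fzd1 has 1 probe with 1 spot per array, so no second probe bears on it, and differences from separate probes of a gene had an SD of 0.54. Lrp5, a co-receptor, read 1228.6 and 1515.6 (0.43, 2.53 spot SDs), and its partner Lrp6 read 387.9 and 295.7 (-0.26). The co-receptor genes thus had opposite signs, but only Lrp5 was past 2 spot SDs, and only under some scalings. It was at 0.32 when scaled to the array median and 0.30 after loess, under 2 spot SDs of 0.17 each. Lrp5 and Lrp6 each have 1 probe with 1 spot per array.

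Fzd4, the receptor of Norrin as well as of Wnt proteins, read 715.2 and 1037.0 (0.66), and Fzd6, a receptor of the polarity branch, 112.9 and 161.4 (0.64). Both were between 1 and 2 spot SDs. Fzd2 and Fzd7 belong, with Fzd1, to 1 subfamily of receptors. Fzd2 was measured by both of its probes, at 6356.3 and 5314.7 (-0.13) and at 670.6 and 505.3 (-0.28). The brighter one was at -0.35 after quantile normalization and -0.38 after loess, over 2 spot SDs of 0.17 each. Fzd7 read 2291.9 and 2330.4 (0.15) by its brighter probe, with a sign that turned under other scalings. Its other probe read 47.7 on the control array and 9.1, not well above background, on the other, a bound of -0.20. This Fzd7 probe and the brighter Fzd2 probe sit on matching stretches of the related genes, and are shown with their identical bases in capitals:
Fzd2 (A_51_P404077, chr11:102467613-102467672, plus strand, mm9): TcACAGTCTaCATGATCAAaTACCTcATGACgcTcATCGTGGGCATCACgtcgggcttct
Fzd7 (A_51_P142107, chr1:59541367-59541426, plus strand, mm9): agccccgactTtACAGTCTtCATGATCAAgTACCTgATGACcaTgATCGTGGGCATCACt
Over the 50 facing bases, 42 are identical (84.0%). Whether either probe binds RNA of the other gene was not tested. On the array labelled MARVELD1 this Fzd7 probe was not well above background. There the Fzd2 probe read 5314.7 and the brighter probe of Fzd7 itself 2330.4, so the dim probe did not follow its own gene's other probe either.

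Fzd3, a receptor of axon guidance, gave opposite signs by its probes, 0.41 (387.8 and 471.0) and -0.21 (98.3 and 77.6). The second probe covers 22750 bases of the genome, so its bases are split there. Fzd10 read 128.0 and 150.7 (0.36), Fzd8 101.6 and 78.9 (-0.24) and Fzd9 81.9 and 80.9 (0.11). Fzd5 read 63.0 and 66.1 (0.20) by 1 probe, and its other probe, dim on the array labelled MARVELD1, gave a bound of -0.32. The other probes of Fzd8 (7.9 and 8.1) and Fzd10 (9.2 and 8.9), like that of the ligand Wnt9a (31.2 and 38.0), were above background on neither array. Fzd5 and Fzd9 changed sign under at least 1 other scaling or probe choice.

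**Figure D4:**
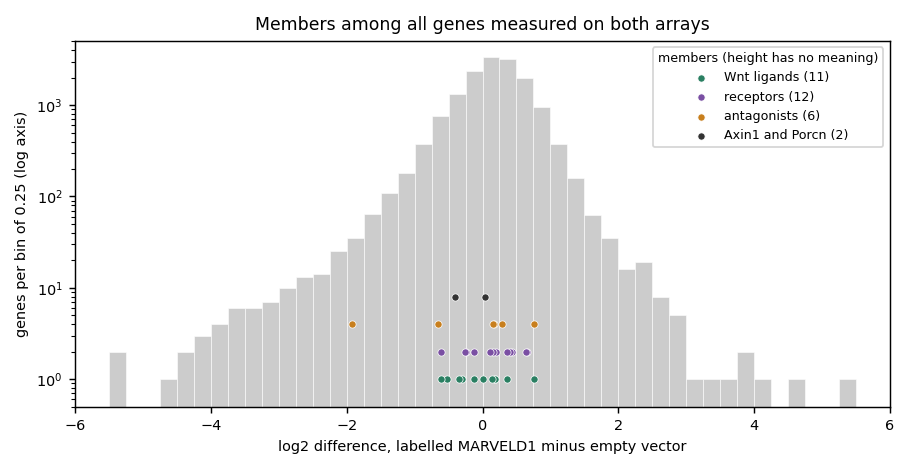
Number of genes (log axis) per bin of 0.25 of the log2 difference, for all 15585 genes measured on both arrays (grey bars), with the 31 members measured on both arrays as dots by role; the height of the dots has no meaning. All dots except Dkk2 at -1.93 lie between -0.66 and 0.76, within the bulk of the bars.

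Dkk2, a secreted protein that binds the co-receptors Lrp5 and Lrp6, had the largest difference measured on both arrays among the members. It read 400.7 on the control array and 96.6 on the array labelled MARVELD1 (A_51_P241068, chr3:131842357-131842416), with error estimates of the scanner program of 40.8 and 12.4. It was 3.80-fold lower, a difference of -1.93 or 4.94 spot SDs, and lay between -2.04 and -1.43 under every alternative scaling and probe choice. The gene has 1 probe with 1 spot per array, so no second probe bears on it. Of the other Dickkopf genes, Dkk3 read 73.9 and 75.4 (0.16, with a sign that turned under other scalings). Dkk1 and Dkk4 were not well above background on either array. The probes of Dkk1 read 14.6 and 16.5 and, for the other, 17.2 and 30.3, and Dkk4 read 7.8 and 8.1.

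The 4 secreted Frizzled-related genes named Sfrp were measured on both arrays, while Frzb, a relative under another name, was above background on neither (7.6 and 7.8). Sfrp5 read 457.8 and 264.4, a difference of -0.66 or 1.70 spot SDs, and Sfrp4 read 65.0 and 101.1 (0.76), or 1.14 spot SDs of its dimmer range. Sfrp2 read 161.8 and 167.1 (0.17). Sfrp1 read 70.7 and 78.6 (0.28), and its other probe was above background on neither array. Sfrp5 lies 47.3 kb from Marveld1 on chromosome 19, by the probes' coordinates, and both read lower where MARVELD1 is labelled. No other gene near Marveld1 was examined, and 5317 of the 15585 genes measured on both arrays had a negative difference. A link between the 2 was not tested. The Sfrp5 probe is shown as that of the antagonist with the second-lowest difference:
Sfrp5 (A_51_P476169, chr19:42273211-42273270, minus strand, mm9): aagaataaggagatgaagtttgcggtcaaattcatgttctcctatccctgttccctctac
Over the 6 secreted antagonists measured, the median was 0.17 and the mean -0.20. The median and mean thus differ in sign, and Dkk2 holds the lowest value.

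Axin1 read 287.2 and 198.4, a difference of -0.41 or 1.04 spot SDs. Axin2, a feedback gene that beta-catenin signalling is known to induce in many tissues, was well above background on neither array, at 9.3 and 8.4. Both of these are surrogate values that the scanner program puts in place of very low readings, so the probe gives no order between the arrays. The values given above for Dkk4 and for the dim probes of Fzd8 and Wnt6 are surrogates on both arrays as well. Those of both Wnt3 probes are surrogates on the array labelled MARVELD1.

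The other genes of the pathway, 92 genes from 4 lists with the members left out, had 82 above background on at least 1 array, against 16532 of all 19713 genes. Of the 82, 4 passed the 2-fold limit upward (4.88%) and 2 downward (2.44%), again near the shares of all genes, 5.37% and 3.51%. The 4 higher ones were Celsr1, Prickle1, Pygo1 and Ppard, and the 2 lower ones were Ccn5 and Id2. The median of the lists together was 0.13, or -0.05 relative to all genes. Scaled to the array median, after quantile, loess or normexp normalization and in the authors' deposited table, 3 passed upward. In these settings 1.84% to 4.01% of all genes did. With the mean of all probes or the most 3-prime probe 5 passed upward, where 4.72% and 5.86% of all genes did.

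Among 23 other secreted and membrane regulators, 15 were above background, with a median of -0.08 over 13 measured on both arrays. None was past 2-fold (0 in each direction), where 8.89% of all genes passed in either direction. Apcdd1, a membrane inhibitor of Wnt signalling, read 2368.1 and 4316.1 (0.99, 1.99-fold higher), and its other probe was not above background. Lgr6, a receptor of R-spondins, was at 0.54 (95.7 and 127.6), and its other probe gave a bound of 1.44. The lowest were Rspo2, an R-spondin, at -0.63 (87.8 and 51.8) and the polarity co-receptor gene Ptk7 at -0.61 (599.5 and 360.2). Wls, which carries Wnt proteins to the cell surface, read 7652.6 and 8569.2 (0.29), with 0.38 from its other probe. Ror1 was well above background on neither array.

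All 31 intracellular transducers were above background, with a median of 0.10 over 30 measured on both arrays. Pygo1, a co-activator of beta-catenin, read 74.9 and 265.4, or 3.87-fold higher. Tnks2, a tankyrase that marks Axin for degradation, was next at 0.94 (16159.3 and 28312.9). The beta-catenin gene Ctnnb1 read 21663.3 and 27970.3 (0.50) by its brightest probe, and its other probes gave 0.20 and -0.60. The lowest were Gsk3b, a kinase that phosphorylates beta-catenin, at -0.74 (230.7 and 126.3) and -0.89 by its other probe, and the corepressor gene Tle1 at -0.65 by both probes. Lef1, a partner of beta-catenin on DNA, read 68.6 on the control array and 40.5, not well above background, on the other, a bound of -0.63.

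Of 24 targets and feedback genes, 17 were above background and 16 were measured on both arrays, 12 of them above the median of all genes and 4 below it. The list includes 2 members, Axin2 and Dkk1, which were not above background. Its median was 0.56, or 0.37 relative to all genes, and 0.21 to 0.37 under the alternatives. Its mean was 0.00. Ccn5, a secreted matrix-associated protein gene, read 1659.7 and 119.9 (12.7-fold lower), and Id2, an inhibitor of helix-loop-helix factors, 741.3 and 52.0 (13.1-fold lower), with -1.92 from its other probe. Ppard, a nuclear receptor gene, read 75.2 and 138.0 (2.00-fold higher, at the limit), and Ccn4, a relative of Ccn5, 1398.6 and 2210.3 (0.79). Myc was at 0.57 and 0.55 by its bright probes and -0.21 by the other, and Ccnd1 at 0.40 (11187.4 and 13522.2). Many of these genes respond to other signals too. Of the genes of the list known mainly as feedback inhibitors, Nkd1 was at 0.31 (253.5 and 287.2), Nkd2 at 0.71 (66.5 and 99.7) and Znrf3 at 0.06 (426.0 and 407.7), while Notum and Rnf43 were not well above background on either array. The other probes of Nkd1 (14.4 and 14.1) and Nkd2 (8.3 and 8.0) were above background on neither array. For probes as dim as the Nkd2 one, the spot SD was 0.67.

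All 22 genes of the polarity and calcium branches were above background, with a median of 0.12. Celsr1, an atypical cadherin of planar polarity, read 72.3 and 348.3, or 5.26-fold higher, by its only probe. Prickle1, which acts in the same polarity complex system, read 189.5 and 541.0, or 3.12-fold higher, and its other probe was not above background. The lowest were Camk2a, a calcium-dependent kinase gene, at -0.45 (225.9 and 151.6), while its other probe gave a bound of 0.30, and Rhoa, a small GTPase of the polarity branch, at -0.43 (18520.6 and 12620.4), with -0.18 from its other probe. Daam2 was at 0.48 by its brighter probe, while a bound of -1.33 came from another.

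**Figure D5:**
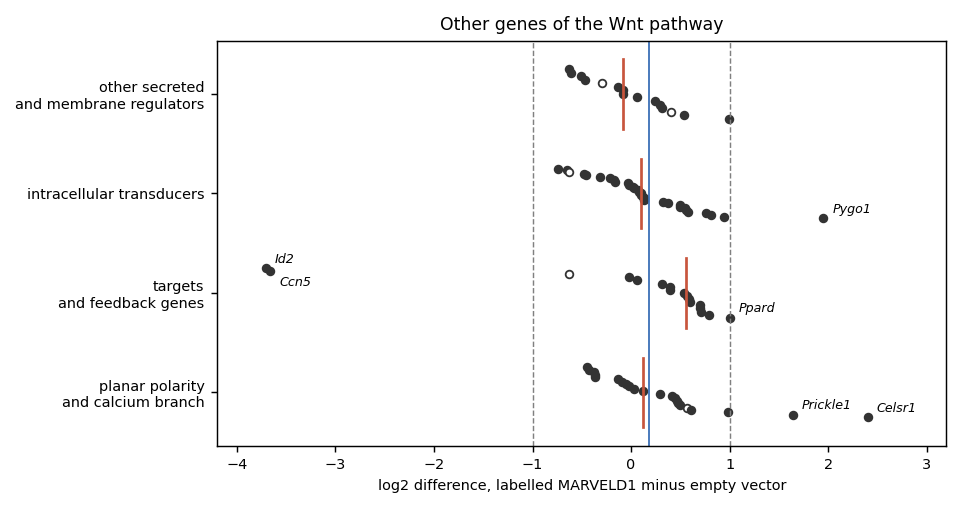
Log2 difference (array labelled MARVELD1 minus control array) of the other Wnt pathway genes above background, by list; open circles are bounds, red bars the medians of genes measured on both arrays, the blue line the median of all genes (0.18) and dashed lines 2-fold. The red bar of the targets lies at 0.56, and Celsr1, Prickle1, Pygo1 and Ppard lie at or beyond 2-fold higher, Ccn5 and Id2 beyond 2-fold lower.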

How the data were processed

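Total RNA of 2 NIH3T3 lines was measured on 1 single-colour Agilent array each. Per the file headers, the deposited intensity of each spot was read by Agilent Feature Extraction 9.5.3.1, with background subtraction and detrending within the array, and probe coordinates are on mm9. The authors' deposited table of normalized intensity, 26851 probes, served as an alternative. Its columns have medians of 3.11 and 2.94 and lie near the processed intensity divided by 124.6 and 123.3; no further step is given in the sources used here.

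The program's outlier flags removed 116 spots of the control (empty vector) array and 223 of the array labelled MARVELD1, and 0 spots were saturated. Each spot's log2 intensity was set relative to the 75th percentile of the array, spots of a probe were averaged, and a probe counted as well above background when that flag held for the majority of its spots or for an equal share. Genes other than the members were named through a RefSeq table (GRCm38.p6), for names only. 2 probes that this table names Fzd3 and Lrp6 carry other names in the files and were left out. A gene stands by its brightest probe above background on at least 1 array. For a bound, the dim side was taken as the lowest value among probes with every spot well above background (36.6 control, 38.1 labelled MARVELD1), or as the dim reading where that was higher. The members, the lists and the rule for named genes (all members; of each list the 2 highest, the 2 lowest and any other past 2-fold) were chosen with earlier results of these data known. Further list genes, such as Wls, Ctnnb1, Myc and the feedback inhibitors, were picked after their values were seen. Alternatives were other scalings (array median, quantile, loess, normexp with offset 50), the deposited table, other probe choices, filters and limits, using limma 3.58.1 in R 4.3.3. The gene table was checked on simulated data.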

Additional observations from a re-analysis of the deposited data

How the results depend on the processing

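Dkk2 was at least 2-fold lower in every alternative run, and Wnt5b at least 2-fold higher except where its bright probe was not used: in the authors' deposited table, with probes above background on both arrays, and with the most 3-prime probe (0.84). The members at least 2-fold higher, 2 as reported, numbered 1 when scaled to the array median, after quantile, loess or normexp normalization, and at a limit of 3-fold (Wnt5b in each), and 1 with the most 3-prime probe (Wnt10a). Of all genes, 3.95% passed upward when scaled to the array median, 4.01% after quantile, 3.61% after loess and 1.84% after normexp normalization. The share was 1.21% at 3-fold and 5.86% with the most 3-prime probe. Members higher numbered 0 of 31 in the deposited table (3.07% of all genes) and 0 of 31 with the filter on both arrays (4.43%). Without the filter on dim probes they numbered 4 of 42 (6.65% of all genes), and at 1.5-fold 6 of 34 (19.4%). The members lower, 1 as reported, numbered 2 of 42 without the filter (3.76% of all genes) and 4 of 34 at 1.5-fold (8.86%). Of the other pathway genes, 16 were higher and 7 lower at 1.5-fold, where 19.4% and 8.86% of all genes passed. Of 235 member values under other scalings, values or probes, 229 lay within 0.39 of the reported value, 6 moved further and 0 of those past 2-fold turned sign. The 0.39 is the SD of a single-spot difference over all intensities. That SD was 0.17 at 1000 and over, so shifts of bright genes past it, as for Fzd1 (-0.87 to -0.61) and Fzd2 (-0.39 to -0.13), count as within the band. Members with 1 probe cannot move under other probe choices. By sign, 13 members were positive throughout, 12 negative and 9 mixed. Medians relative to all genes ran from -0.19 to 0.00 for ligands, -0.09 to -0.01 for receptors, and -0.12 to 0.01 for antagonists with Axin1. For the most 3-prime probe, the direction of the file's coordinates was used where the reference gave no strand, a choice made after seeing the data, as were the alternatives for the medians of the lists of other genes. No paired analysis was possible because there is 1 array per group, and no replicate could be left out. The 1 array per group limits every value, and dim signal limits some: 11 of the 31 members measured on both arrays had mean intensities under 100.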

Other observations

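The 15 member probes that were not well above background on either array had a median GC content of 36.7% (25.0% to 55.0%), against 45.0% (35.0% to 55.0%) for the 33 above background on both. The part of base composition in which members were measured was not tested.

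Several other pathway genes had probes, each measured on both arrays, with large differences in opposite directions, picked out after their values were seen. Tnks gave -0.46 by its brightest probe (2470.7 and 1650.2) and 2.74 by another (59.8 and 365.7). Mapk9 gave 0.61 (482.8 and 672.9), -1.02 (518.7 and 233.7) and -0.23 (565.8 and 441.2). For these genes the direction depends on the probe.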
